A study of Ovis aries with 23 samples.

Results

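The centre of a 3-day-old infarct was compared with ventricular muscle remote from it in adolescent sheep. The comparison holds the 3 arrays labelled adolescent infarct and the 3 labelled adolescent remote, chosen by those labels alone, out of 23 arrays in the series. The adolescents were 6 months old. A diagonal branch (the second) of the LAD, the artery down the front of the heart, had been tied 3 days before the tissue was taken, so both groups come from operated hearts and remote muscle is not uninjured muscle. The other arrays hold the border zone (3) and sham-operated hearts (2) of adolescents, for which the labels give no time after surgery, and the 4 matching groups of fetuses operated at 105 days of gestation (3 each). RNA from each piece of ventricle was labelled with Cy3 and hybridised to a 1-colour Agilent sheep array. The labels do not say whether the 3 arrays of a group came from 3 animals. Nor do they say whether infarct and remote arrays of the same number came from the same heart. The p-values therefore cover variation among arrays alone, part or all of which can be technical. That spread was pooled over all 8 groups of the series, so a standard error (SE) can differ from the scatter of the 6 arrays compared.

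Coronary ligation starves the muscle downstream of oxygen, and its cardiomyocytes die within hours. Neutrophils and then monocytes enter the dead tissue and clear it, after which fibroblasts and new vessels fill the gap with scar, since the mature heart replaces few lost cardiomyocytes. The healthy ventricle burns mostly fatty acids in densely packed mitochondria, so the transcripts of contraction and oxidative metabolism mark living muscle.

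Each value rests on a 60-base probe. The probes shown here belong to the genes around which the results turn: a contractile protein, the oxygen store of muscle, pairs of related carriers or enzymes that moved in opposite directions, a cytokine, a receptor of the plasmin system and a cell cycle kinase. The sequences are those of the array files, in 5′ to 3′ order.
MYH7: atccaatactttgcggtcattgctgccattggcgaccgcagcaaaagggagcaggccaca
MB: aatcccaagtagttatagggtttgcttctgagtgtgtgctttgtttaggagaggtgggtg
SLC2A4: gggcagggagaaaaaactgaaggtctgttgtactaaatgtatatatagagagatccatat
SLC2A5: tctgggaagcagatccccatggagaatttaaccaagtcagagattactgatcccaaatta
CPT1B: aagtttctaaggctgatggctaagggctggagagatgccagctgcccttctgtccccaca
CPT1A: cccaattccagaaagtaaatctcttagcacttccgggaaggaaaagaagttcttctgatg
SLC25A4: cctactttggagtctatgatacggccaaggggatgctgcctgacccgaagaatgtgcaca
SLC25A5: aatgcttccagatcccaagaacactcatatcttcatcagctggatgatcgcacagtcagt
PLAUR: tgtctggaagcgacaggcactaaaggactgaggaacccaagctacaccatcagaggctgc
IL6: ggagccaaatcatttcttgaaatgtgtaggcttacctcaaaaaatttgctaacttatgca
CDK1: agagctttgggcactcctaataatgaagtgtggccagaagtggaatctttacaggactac
The 2 carnitine palmitoyltransferase probes share no identical stretch longer than 6 bases, the 2 ADP/ATP carrier probes none longer than 5 and the 2 sugar carrier probes none longer than 6. Only exact runs between the 2 probes of a pair were compared, and the ADP/ATP carrier probes hold similar stretches with mismatches. Whether a probe also binds the transcript of the related gene was not tested. Positions in the sheep genome were not used here.

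Levels are log2 signals from which the 75th percentile of the array was subtracted, so 0 is the level of that percentile, and differences are infarct minus remote on that scale. Of 12451 probes bright enough to test, 3415 (27.4%) were higher and 3714 (29.8%) lower in the infarct at a limma adjusted p at or below 0.05 (Benjamini-Hochberg over all tested probes), and 7129 (57.3%) passed in either direction. Changes of at least 4-fold were found for 1036 higher and 1053 lower probes, and of at least 16-fold for 87 higher and 181 lower probes. The median over all tested probes was -0.08. A gene name could be given to 875 genes, of which 265 (30.3%) were higher and 216 (24.7%) lower, with a median of 0.03. All 3 infarct arrays lay above all 3 remote arrays for 30.5% of tested probes and below them for 34%. These shares are the background for every count below. The infarct arrays were brighter than the remote arrays (75th percentile 757 to 1345 against 307 to 375 intensity units), without overlap. With array brightness as a term in the fit, 3969 probes passed. Counts under this brightness-adjusted fit are given beside most of the lists that follow where they differ. The median shrank in it for cytokines (2.96 to 2.17) and grew for fibroblast markers (2.39 to 2.80), and both lists lost calls. A lost call therefore does not by itself show a smaller difference. Infarct and remote arrays of one number lay on one slide, at the same pair of positions on each of the 3 slides, so slide position and tissue area cannot be told apart. The difference had the same sign on every slide for 263 of the 265 genes called higher and for all 216 called lower, against 657 of all 875 genes. The calls rest on these same arrays, so this agreement is not a separate replication. In pieces of tissue, fewer cells of a type and less RNA per cell cannot be told apart.

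**Figure D1:**
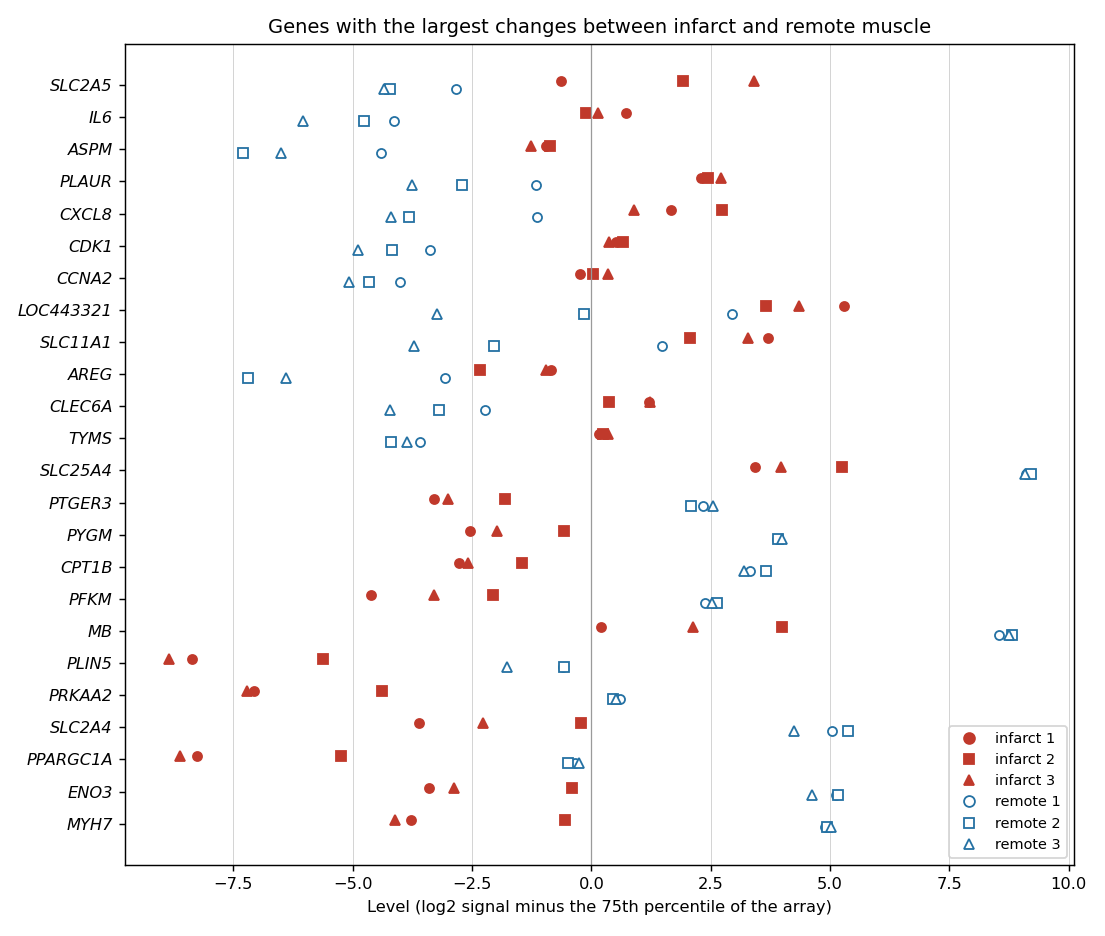
Levels of the 12 named genes with the largest rises and the 12 with the largest falls on each infarct array (filled) and remote array (open), in log2 units relative to the 75th percentile of the array; marker shape gives the array number. The 24 genes were chosen among those whose groups do not overlap, so the lack of overlap is not a result. Infarct 2 is the highest infarct array for all 12 genes that fell, and remote 1 the highest remote array for all 12 that rose.

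MYH7 had the largest fall of any named gene. Only 3 of the 25 cardiomyocyte genes listed could be named on the array. All 3 were well above background on all 6 arrays, so their transcripts were detected at both sites, and all 3 fell. MYH7, the slow myosin heavy chain that powers contraction in the sheep ventricle, had levels of -3.78, -0.55 and -4.10 on the infarct arrays and 4.90, 4.95 and 5.02 on the remote arrays. The remote arrays were nearly identical, while infarct 2 kept more of the transcript than the other 2 infarct arrays, and the groups were far apart. The difference was -7.77 (SE 0.65), a 218-fold fall (limma adjusted p = 3.67e-08). MB, which encodes the oxygen-storing myoglobin, lay at 0.21, 3.99 and 2.14 in the infarct against 8.54, 8.81 and 8.75 in remote muscle, a difference of -6.59 (SE 0.60). TPM1, the tropomyosin of the thin filament, lay at 3.83, 5.63 and 4.35 against 9.07, 9.21 and 9.10, a difference of -4.52 (SE 0.32). Infarct 2 was the highest infarct array for all 3. The median of the list was -6.59, and within slides 1, 2 and 3 it was -8.33, -4.82 and -6.61. Without infarct 2 the difference of MYH7 was -8.90.

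Mitochondrial energy genes fell as a group. All 6 measured genes of oxidative phosphorylation were lower, with a median of -2.62. SLC25A4, the heart and muscle form of the carrier that exchanges ADP and ATP across the inner membrane, lay at 3.42, 5.24 and 3.97 in the infarct and at 9.11, 9.20 and 9.08 in remote muscle. Its fall of 4.92 on the log2 scale (SE 0.33, limma adjusted p = 7.81e-09) was the largest of the list. Its relative SLC25A5, a form found in growing cells, moved the other way: 3.69, 3.78 and 4.11 against 0.53, 0.24 and 0.19, a rise of 3.54 (SE 0.28). SLC25A5 belonged to none of the lists and was chosen after its values were seen. The ATP synthase subunits ATP5MC1, ATP5MC2, ATP5PO and ATP5PD differed by -2.67, -2.40, -2.71 and -2.58, and the cytochrome oxidase subunit COX5A by -2.17. COX5A lost its call in the brightness-adjusted fit (-0.87, limma adjusted p = 0.12), and the other 5 kept theirs.

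Fatty acid genes followed, with 5 of 8 measured lower and 1 higher. PPARGC1A, the coactivator that drives mitochondrial biogenesis, lay at -8.26, -5.25 and -8.62 in the infarct and at -0.34, -0.50 and -0.27 in remote muscle. It was well above background on 1 of 3 infarct arrays, infarct 2. The difference was -7.01 (SE 0.75), and -5.73 when the dim arrays were set to their detection limit. CPT1B, the muscle enzyme that admits long-chain fatty acids to mitochondria, lay at -2.77, -1.45 and -2.58 against 3.33, 3.67 and 3.19, a difference of -5.66 (SE 0.37, limma adjusted p = 7.27e-09). The form typical of liver and many other cells, CPT1A, lay at 0.80, 1.01 and -0.71 against -1.70, -3.23 and -2.73 and rose by 2.92 (SE 0.68), although it lost its call in the brightness-adjusted fit (2.28, limma adjusted p = 0.095). The groups of each enzyme did not overlap, and the 2 forms moved in opposite directions. PPARA, the nuclear receptor that switches on fatty acid oxidation, differed by -2.84, lipoprotein lipase LPL by -2.78 and the acylcarnitine carrier SLC25A20 by -1.04. PLIN5, a lipid droplet protein of oxidative tissue, lay at -8.36, -5.61 and -8.86 against -0.60, -0.57 and -1.76, a difference of -6.63 (SE 0.65) with 1 infarct array above background. PRKAA2, a catalytic subunit of the energy sensor AMPK, differed by -6.74 (SE 0.60), again with only infarct 2 above background.

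Genes of sugar metabolism gave the widest range of differences of any list, from -7.20 to 5.37. Of 18 measured genes of glycolysis and glucose handling, 8 were lower and 5 higher. SLC2A4, the insulin-responsive glucose carrier of muscle, lay at -3.61, -0.22 and -2.27 in the infarct and at 5.05, 5.37 and 4.25 in remote muscle, a difference of -6.93 (SE 0.68). SLC2A5, a carrier of fructose, had the largest rise of any named gene: -0.63, 1.92 and 3.41 against -2.83, -4.22 and -4.33, a difference of 5.37 (SE 0.98, limma adjusted p = 0.000148), a 41.2-fold change. Infarct 1 was well below the other 2 infarct arrays for SLC2A5, and the groups did not overlap. The largest falls among the enzymes were those of muscle forms. ENO3, the muscle enolase, lay at -3.41, -0.40 and -2.88 against 5.13, 5.17 and 4.62, a difference of -7.20 (SE 0.51). The muscle phosphofructokinase PFKM differed by -5.83 (SE 0.41), the muscle glycogen phosphorylase PYGM by -5.62 (SE 0.35) and the brain form PYGB by -3.90 (SE 0.21). The aldolase of muscle, ALDOA, differed by -2.77, GAPDH, which most cells use, by -1.69, and the first enzyme of the pathway, HK1, by -1.55. In contrast LDHA, which makes lactate, rose by 2.15, and the liver phosphorylase PYGL by 1.00. SLC2A1, the general glucose carrier, rose by 1.66 but had a difference of -0.06 after normexp background correction. The median of the list was -0.51. In the brightness-adjusted fit 4 of the 18 were called higher and 8 lower, with a median of 0.17.

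Genes of excitation and hormone response were measured in 2 lists. Of 6 measured genes of calcium handling and ion transport, 4 fell, among them the beta-1 adrenergic receptor ADRB1 by 3.50, the sodium pump subunit ATP1B1 by 2.59, and connexin 43, GJA1, which couples cardiomyocytes electrically, by 2.19. ADRB1 was above background on 1 infarct array and all 3 remote arrays. Of 21 genes of hormone and vasoactive signalling, 6 were lower, 4 higher and 11 not called, with a median of -0.16, so the share that fell is near that over all named genes. PTGER3, a prostaglandin E2 receptor, lay at -3.29, -1.80 and -3.01 against 2.34, 2.08 and 2.54, a difference of -5.02 (SE 0.37, limma adjusted p = 1.5e-08). The mineralocorticoid receptor NR3C2 differed by -3.49, the thyroid hormone receptor THRB by -2.52, the glucocorticoid receptor NR3C1 by -2.35 and the angiotensin II receptor AGTR1 by -2.08. The brightness-adjusted fit called 4 of the 21 lower and 1 higher. For NR3C1 the brightness-adjusted difference was -0.66 (limma adjusted p = 0.22). PTGS2, the inducible enzyme of prostaglandin synthesis, rose by 2.14.

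Inflammatory genes were on the rising side. Of 12 measured cytokines, 9 were higher and none lower, with a median of 2.96. IL6, a cytokine of the acute response, lay at 0.73, -0.10 and 0.14 in the infarct and at -4.13, -4.77 and -6.04 in remote muscle, where 2 of 3 arrays were above background. The difference was 5.24 (SE 0.98, limma adjusted p = 0.000182). IL1A, IL1B and TNF, which start the response, rose by 3.55, 3.12 and 2.10. IL10, which restrains it, lay at -0.15, -1.05 and -0.12 against -2.36, -4.30 and -4.26, a rise of 3.20 (SE 0.50), and IL1RN, the natural blocker of the interleukin-1 receptor, rose by 3.61. Inflammatory and restraining cytokines were thus both higher at this time. IL18, which the inflammasome activates, rose by 3.10 at its brightest probe, but another of its 3 probes fell by 1.58, so its direction depends on the probe. Of the 12, 6 were called higher with brightness in the fit, and the fit after normexp background correction 4. IL12A, IL12B and IL15 passed in neither direction, and IL12B was below background at both sites.

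Chemokines were less uniform, with 1 higher and 1 lower of 4. CXCL8, the main attractant of neutrophils, lay at 1.67, 2.74 and 0.89 in the infarct and at -1.14, -3.82 and -4.20 in remote muscle, a rise of 4.82 (SE 0.93, limma adjusted p = 0.000253). CXCL1, a related attractant, fell by 1.09 from high levels (6.73, 6.61 and 5.49 against 7.48, 7.40 and 7.21), a call that was lost in the brightness-adjusted fit. CXCL10, induced by interferon, had a difference of -1.75 (SE 0.83) that did not pass. Among receptors, CXCR4 was well above background on all 3 infarct arrays and on no remote array and was at least 7.47-fold higher. That bound sets the mean of the infarct arrays against the detection limit of the remote arrays.

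Sensors of damage and microbes rose in 13 of 17 cases, with none lower and a median of 1.79. TLR2, a surface receptor for microbial and damage products, lay at 0.97, 0.33 and 0.55 against -1.28, -4.21 and -3.99, a rise of 3.78 (SE 0.75). CD14, which binds lipopolysaccharide, rose by 2.51, the cytosolic sensor NOD2 by 2.62, the pattern recognition protein PTX3 by 2.70 and the signalling kinase IRAK4 by 1.79. SLC11A1, a metal carrier of phagocyte vacuoles, lay at 3.71, 2.06 and 3.27 against 1.48, -2.05 and -3.71, a rise of 4.44 (SE 1.11). MYD88, TLR5, TLR10 and NFKBIA did not pass. Only 3 of the 17 were called higher in the brightness-adjusted fit, and 3 after normexp background correction.

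Phagocyte markers rose together. Of 10 measured macrophage and monocyte markers, 9 were higher, with a list median of 2.81. The lysosomal protease CTSB lay at 4.69, 4.96 and 4.49 against 1.95, 1.35 and 0.49, a rise of 3.45 (SE 0.51), and CTSS, which trims antigens in phagocytes, lay at 4.49, 4.86 and 5.23 against 2.51, 0.76 and 1.03, a rise of 3.43 (SE 0.59). The Fc receptor chains FCGR1A and FCER1G rose by 2.86 and 2.76, the protease LGMN by 2.59 and the costimulatory CD86 by 2.67. The lysozyme LYZ rose by 3.71. LOC443321, a lysozyme outside the list, was at 5.29, 3.66 and 4.36 against 2.94, -0.16 and -3.24 and rose by 4.59 (SE 1.20). Lysozymes are a family of similar genes whose signals may mix. TYROBP, an adaptor of myeloid receptors, went the other way, at -0.48, -0.95 and -1.08 against 0.10, -0.14 and 0.62, a difference of -1.03 (SE 0.26). With brightness in the fit, 2 of the 10 were called higher and none lower. Of 7 neutrophil markers 4 were higher: the integrin chains ITGAM and ITGB2, MMP9 and SELP. All 4 also stand in the lists of macrophage markers, leukocyte adhesion or matrix proteases, so none of these calls is specific to neutrophils. SELP, the selectin that platelets and vessels show to leukocytes, was at least 8.29-fold higher, and MMP9, a gelatinase, at least 1.90-fold, each with no remote array above background. The MMP9 bound holds for the main processing only, since its difference turned negative after normexp background correction. LTF did not pass, and the cathelicidins CATHL1B and CATHL3 were not well above background at either site. None of the 7 passed in the brightness-adjusted fit, and 1 did after normexp.

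**Figure D2:**
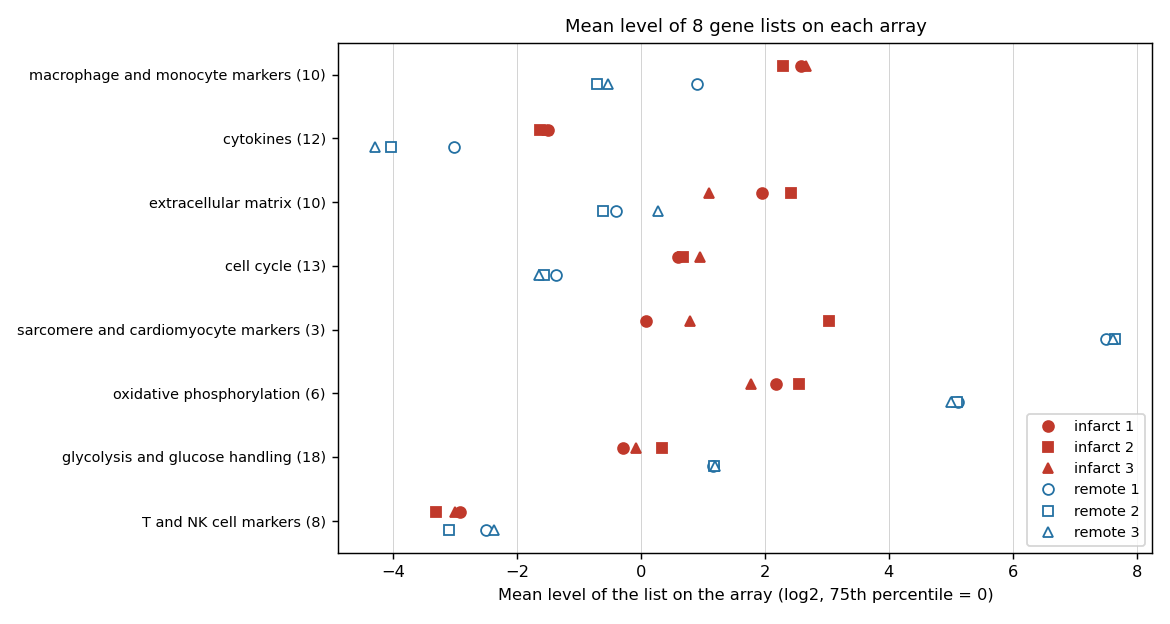
Mean level of 8 gene lists on each infarct (filled) and remote (open) array, in log2 units relative to the 75th percentile of the array, with the number of genes in brackets. Remote 1 stands above the other 2 remote arrays for macrophage markers (0.91 against -0.71 and -0.54) and cytokines, and infarct 2 above the other infarct arrays for cardiomyocyte markers.

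The remote arrays differed among themselves for these genes. Over the 7 lists of inflammation and leukocytes together, 41 of 59 genes were higher and 2 lower in the infarct, and remote 1 was the highest remote array for 34 of the 41, against 139 of all 265 genes called higher and 325 of all 875 genes. The median excess of remote 1 over the mean of the other 2 remote arrays was 0.98 for these 41 genes. SLC11A1 shows it most plainly, at 1.48 on remote 1 and -2.05 and -3.71 on the others. Without remote 1, 40 of the 59 were higher and 2 lower. With brightness in the fit, 15 of the 59 were called higher.

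Lymphocyte markers did not follow the phagocytes. Of 8 T and NK cell markers, 4 were lower and 1 higher, and the median was -0.84. The chains of the T cell receptor complex CD3D, CD3E and CD3G differed by -0.97, -0.98 and -1.07, and the kinase LCK by -1.02, whereas CD247 rose by 0.84. CD3E lay at -0.27, -0.54 and 0.13 in the infarct against 0.88, 0.08 and 1.30 in remote muscle, so infarct 3 and remote 2 overlapped. None of the 8 passed in the brightness-adjusted fit or after normexp, and without remote 3 none was called lower. The only B cell marker tested, CR2, had a difference of -2.53, which did not pass (limma adjusted p = 0.058), and lay much higher on remote 1 (0.91) than on the other 5 arrays. None of 3 mast cell markers passed.

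Antigen presentation, adhesion and complement genes rose in part. Of 7 genes of antigen presentation 5 were higher (3 in the brightness-adjusted fit), among them the lipid-presenting CD1D (1.78), the immunoproteasome subunit PSMB8 (1.40) and the costimulatory receptor CD40 (1.74), while B2M, the light chain of class I molecules, had a difference of 0.42 (SE 0.27) that did not pass. Of 10 adhesion genes 8 were higher, with ITGB2 at 4.11, 3.21 and 3.85 against 2.10, 0.21 and -0.14. Only 1 of the 10 passed in the brightness-adjusted fit. The complement receptor C5AR1 rose by 3.07, whereas C3, the central complement protein, differed by 0.02 and ranged from 1.03 to 3.96 over the remote arrays. None of 3 complement genes passed with brightness in the fit. Of 8 interferon response genes 2 were higher (1 with brightness in the fit), among them the transcription factor IRF3 (0.39). The interferon-induced MX1 and MX2 had differences of 1.11 and 1.14 that did not pass (limma adjusted p = 0.0673 and 0.0678).

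**Figure D3:**
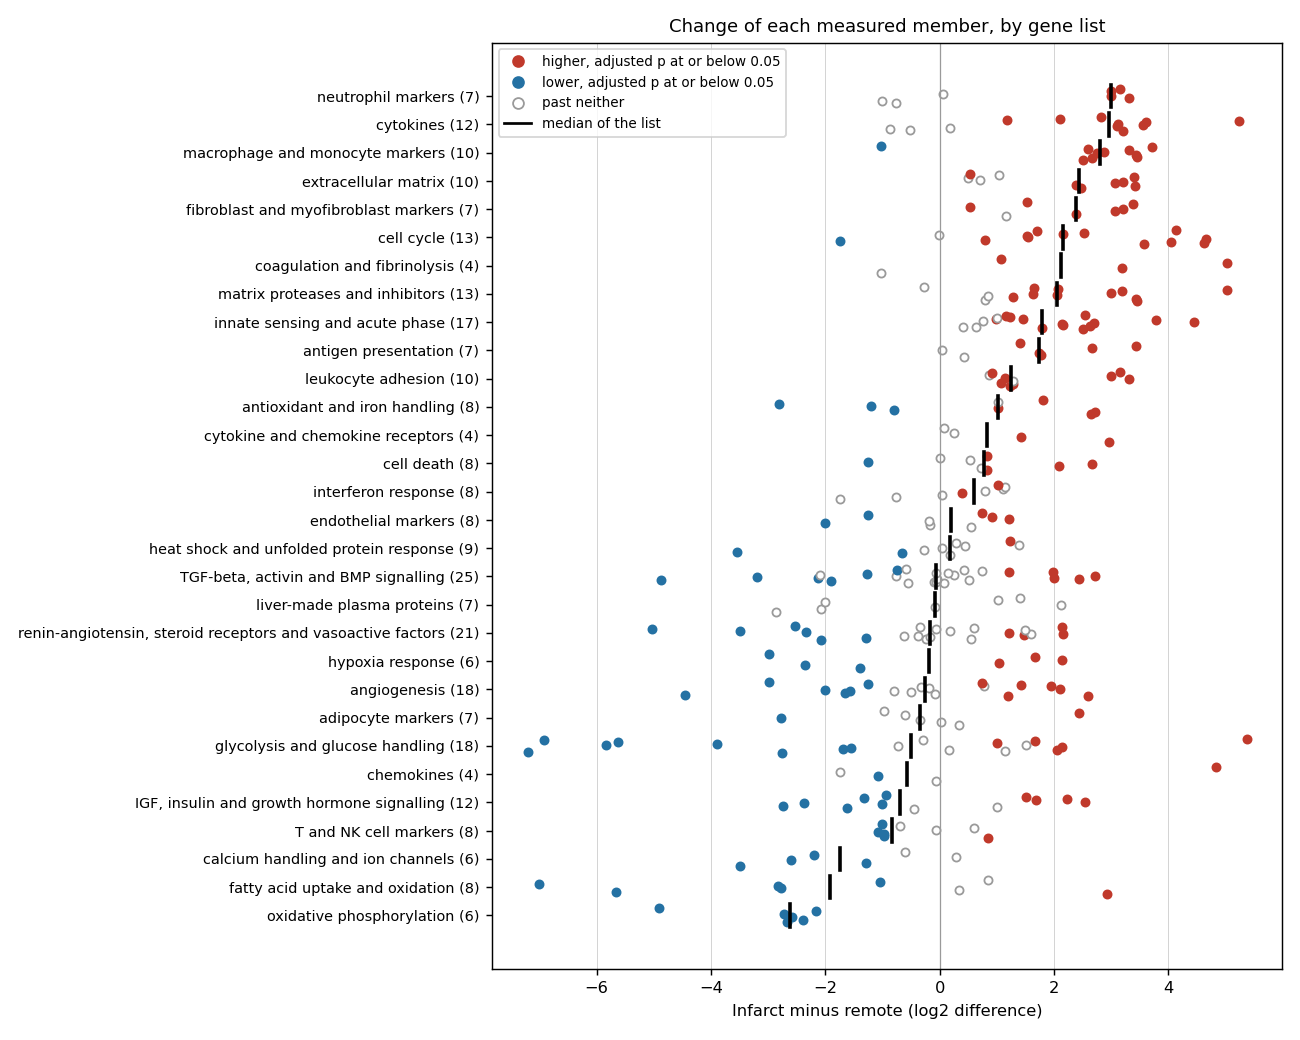
Infarct minus remote difference (log2) of each measured gene in every list with at least 4 measured genes, the number of genes in brackets; filled points passed an adjusted p of 0.05 (red higher, blue lower), open points did not, and the black bar is the list's median. Phagocyte, cytokine, matrix and cell cycle lists lie to the right and oxidative phosphorylation and fatty acid lists to the left, while glycolysis spans from -7.20 to 5.37.

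Matrix genes were higher, with 7 of 10 measured and none lower and a median of 2.43. Collagen chains led: COL12A1 lay at 2.56, 2.83 and 2.58 against -0.61, -1.05 and -0.61, a rise of 3.41 (SE 0.41), and COL5A2 rose by 3.40 (SE 0.34). COL3A1, abundant in early scar, lay at 3.64, 4.74 and 2.57 against -0.03, -0.50 and 1.88, a rise of 3.20 (SE 0.66). COL1A1, the main collagen of mature scar, lay at 1.83, 1.86 and 0.30 against -1.20, -1.60 and -0.37, a rise of 2.39 (SE 0.50). For COL1A1 and COL3A1 infarct 3 was the lowest infarct array and remote 3 the highest remote array, so on slide 3 the groups were close without overlapping, and the median difference of the list was 0.65 on slide 3 against 2.90 and 3.11 on the other 2. The proteoglycan BGN rose by 2.47 and DCN by 0.53. The basement membrane collagens COL4A1 and COL4A2 had differences of 0.70 and 0.50 that did not pass. Of 7 fibroblast markers, 3 of them collagens already counted, 6 were higher (4 with brightness in the fit), among them S100A4 (7.07, 6.23 and 6.44 against 4.69, 2.85 and 2.07, a rise of 3.37, SE 0.83) and the filament protein VIM (1.52), which leukocytes also express. The brightness-adjusted fit called 6 of the 10 matrix genes higher.

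Proteases of the matrix and of the plasmin system rose. Of 13 measured proteases and inhibitors 10 were higher and none lower. PLAUR, the cell surface receptor that focuses urokinase, lay at 2.30, 2.45 and 2.71 in the infarct, within a narrow range, and at -1.16, -2.71 and -3.76 in remote muscle. The rise was 5.03 (SE 0.76, limma adjusted p = 2.23e-05), a 32.6-fold change. Its ligand PLAU, the urokinase itself, lay at -0.83, -0.29 and -0.95 against -3.63, -4.21 and -3.78, a rise of 3.18 (SE 0.29). The collagenases and gelatinases MMP14 and MMP2 rose by 2.05 and 1.63. Of 3 measured inhibitors of these enzymes, TIMP1 rose by 2.06 and TIMP2 by 1.64, while TIMP3 had a difference of -0.28 that did not pass. TIMP2 had a difference of -0.11 after normexp. Of 4 genes of coagulation and fibrinolysis 3 were higher (2 with brightness in the fit), PLAU, PLAUR and SERPINC1. SERPINC1, which encodes antithrombin, rose by 1.07 at dim levels, with 1 of 3 remote arrays above background, and changed sign after normexp. The brightness-adjusted fit called 7 of the 13 higher, and normexp left 5.

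Growth factor families gave calls in both directions. Of 25 measured genes of TGF-beta, activin and BMP signalling, 5 were higher, 6 lower and 14 did not pass, with a median of -0.06 (6 higher and 4 lower with brightness in the fit). These shares are no larger than those over all named genes. INHBA, whose product forms activin A, lay at 1.31, 1.28 and 0.95 against -2.41, -1.71 and -0.47, a rise of 2.71 (SE 0.45), while INHA, whose product turns it into inhibin, lay at -5.39, -4.65 and -5.10 against -1.86, -2.61 and -1.07, a fall of 3.20 (SE 0.41). TGFB2 rose by 1.97. The ligands BMP7, BMP6 and GDF9 differed by -4.88, -1.90 and -2.12, and BMP7 was again highest in the infarct on array 2 (-4.50, -2.62 and -5.57 against 0.65, 0.53 and 0.78). CCN2, a matricellular protein downstream of TGF-beta, rose by 2.44, with remote 3 at 2.63 against -0.12 and -0.34 on the other remote arrays. Of 12 genes of insulin-like growth factor signalling, 6 were lower and 4 higher. All 4 that rose were binding proteins, IGFBP2 (2.54), IGFBP4 (2.22), IGFBP3 (1.69) and IGFBP6 (1.52), while IGFBP5 fell by 1.32, the receptors IGF1R and IGF2R by 2.74 and 2.38, and the ligand IGF2 by 1.00. IGF1 had a difference of 1.01 (SE 0.50) that did not pass. With brightness in the fit, 5 of the 12 were called higher and 3 lower.

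Of 18 measured genes of angiogenesis 6 were higher and 6 lower, with a median of -0.26, shares close to those over all named genes. After normexp none was higher and 5 were lower. VEGFA, the main growth factor of endothelium, lay at -0.32, -0.29 and -1.66 in the infarct and at 2.22, 2.23 and 2.22 in remote muscle, a fall of 2.98 (SE 0.54, limma adjusted p = 0.000144) that did not pass in the brightness-adjusted fit (-1.34, limma adjusted p = 0.1). Its receptor FLT1 fell by 2.00, and FGF1, FGF2 and FGFR1 differed by -4.46, -1.66 and -1.57. ANGPT2, which loosens vessels for sprouting, rose by 2.60. The brightness-adjusted fit called 2 of the 18 higher and 3 lower. Of 8 endothelial markers 3 were higher, the adhesion molecule PECAM1 (0.92), the nitric oxide synthase NOS3 (1.22) and the receptor TIE1 (0.74), and 2 lower, FLT1 and TEK (-1.26), while the brightness-adjusted fit called none higher and 1 lower. Hypoxia genes were split 3 against 3 (2 higher and 1 lower with brightness in the fit). HIF1A, a subunit of a hypoxia-inducible transcription factor, rose by 1.03, and LDHA and SLC2A1 rose as well. The HIF1A relative EPAS1 fell by 2.35, its partner ARNT by 1.40, and the HIF1A target VEGFA fell as given above.

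Cell division genes rose steeply. Of 13 measured, 11 were higher and 1 lower, with a median of 2.16, and all 6 leave-one-array-out fits gave the same counts. CDK1, the kinase that drives entry into mitosis, lay at 0.51, 0.67 and 0.37 in the infarct and at -3.38, -4.18 and -4.89 in remote muscle, where 2 of 3 arrays were above background. The infarct arrays agreed closely and all lay far above remote muscle, a rise of 4.66 (SE 0.36, limma adjusted p = 1.83e-08). Its cyclins CCNA2 and CCNB1 rose by 4.62 (SE 0.40) and 4.05 (SE 0.37). TYMS, which makes thymidylate for DNA synthesis, lay at 0.15, 0.24 and 0.34 against -3.59, -4.20 and -3.87, a rise of 4.13 (SE 0.31). ASPM, a protein of the spindle poles outside the list, rose by 5.05 (SE 0.56), or 3.88 with dim remote arrays at their detection limit, since only remote 1 was above background. The replication clamp PCNA rose by 2.52 and the mitotic kinase AURKA by 3.57. CCND2, a D-type cyclin, was the member that fell, by 1.75, and the inhibitor CDKN1B had a difference of -0.01. With brightness in the fit, 8 were called higher and 1 lower.

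Death and stress genes gave a mixed picture. Of 8 cell death genes 4 were higher and 1 lower: the pro-death BAX (2.09) and BAD (0.82) and the protective BCL2 (2.66) and MCL1 (0.83) rose, and the protective BCL2L1 fell by 1.25. The brightness-adjusted fit called 2 of the 8 higher and 1 lower. Of 8 antioxidant and iron genes 4 were higher and 3 lower (3 and 2 with brightness in the fit). The superoxide dismutases SOD2 and SOD1 differed by -2.81 and -1.21, whereas the thiol protein TXN rose by 1.81 and the subunits of the phagocyte oxidase CYBB and CYBA, which make superoxide, rose by 2.71 and 2.65. Of 9 heat shock and unfolded protein genes 1 was higher, XBP1 (1.23), and 2 lower (none and 1 with brightness in the fit). CRYAB, a small heat shock protein abundant in muscle, lay at 4.57, 5.98 and 4.48 against 8.43, 8.64 and 8.60, a fall of 3.55 (SE 0.36).

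Markers of tissues that a sample might carry along gave few calls. None of 7 liver-made plasma proteins passed, with ALB not above background on any infarct array, but this depended on the fit: 3 were lower when the 6 arrays were fitted alone, and 1 with the replicate block. With the 6 arrays alone and the block, 2 were higher and 3 lower. Neither of 2 erythroid markers passed, nor did the epicardial WT1. Of 7 adipocyte markers 1 fell, LPL, and 1 rose, the nuclear receptor PPARG (2.44). With brightness in the fit none of the 7 was called higher and 1 was called lower. Of 3 skeletal muscle markers 2 were lower. TNNC2, the fast troponin C, stood at 3.06 on remote 2 against -1.13 and -1.56 on the other remote arrays and at -5.18, -2.37 and -5.56 in the infarct. The part of these markers in other results was not tested. Among smooth muscle markers MYLK rose by 2.11, and CNN1 had a difference of 1.16 that did not pass, with remote 3 at 4.37 inside the infarct range of 3.70 to 5.07.

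**Figure D4:**
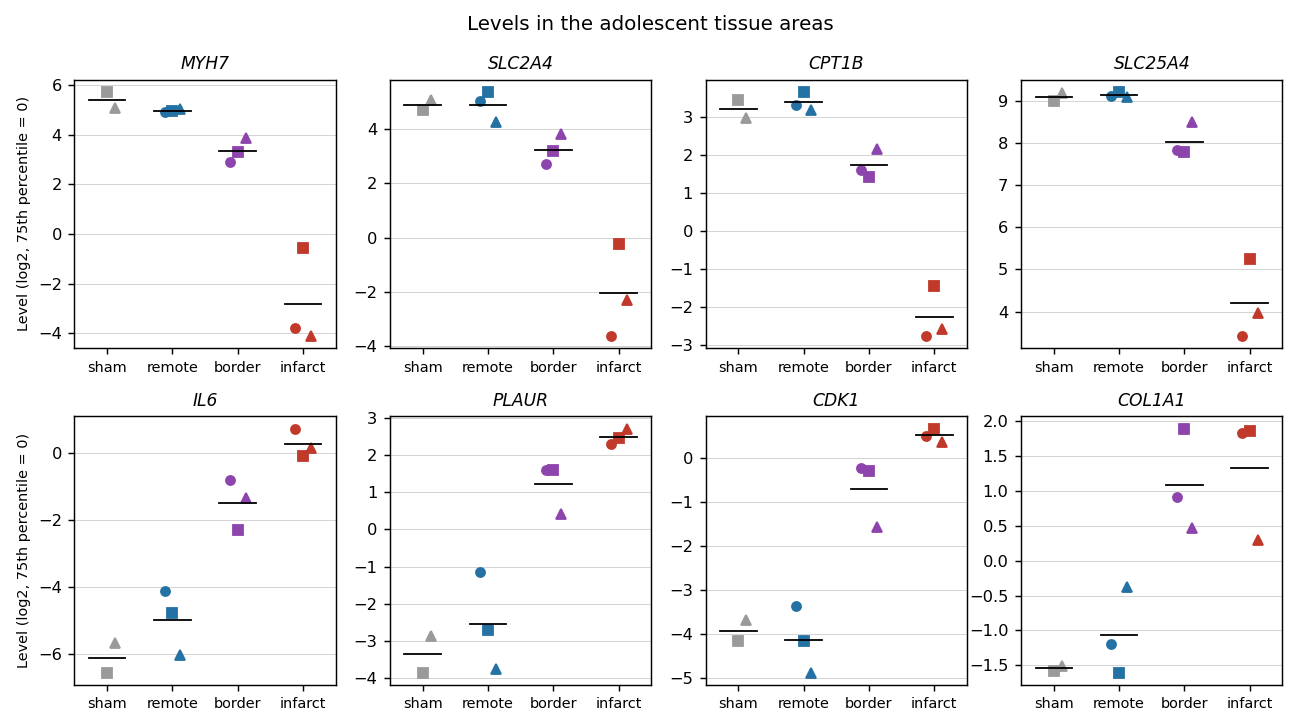
Levels of 8 genes on the adolescent sham, remote, border and infarct arrays, in log2 units relative to the 75th percentile of the array; each point is an array (shape gives its number) and the bar is the group mean. For the muscle genes in the upper row remote and sham lie together and border lies between remote and infarct. For IL6, PLAUR, CDK1 and COL1A1 the mean of the border lies nearer to that of the infarct than to that of remote muscle.

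The border zone lay between the 2 sites. Of the 265 genes called higher, the mean of the border arrays lay between the means of remote and infarct for 247, and of the 216 called lower for 204, against 642 of all 875 genes. The border was nearer to the infarct for 173 of the 265 genes that rose and for 63 of the 216 that fell, against 422 of all 875 genes. All 12 of the largest falls had border values nearer to remote muscle, as for MYH7, at 2.89, 3.30 and 3.86 on the border arrays. Of the 12 largest rises 10 had border values nearer to the infarct, as for PLAUR, at 1.60, 1.61 and 0.42. The remote level of MYH7 stood close to that of the 2 sham arrays, at 5.72 and 5.06. These positions are a description and were not tested.

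**Figure D5:**
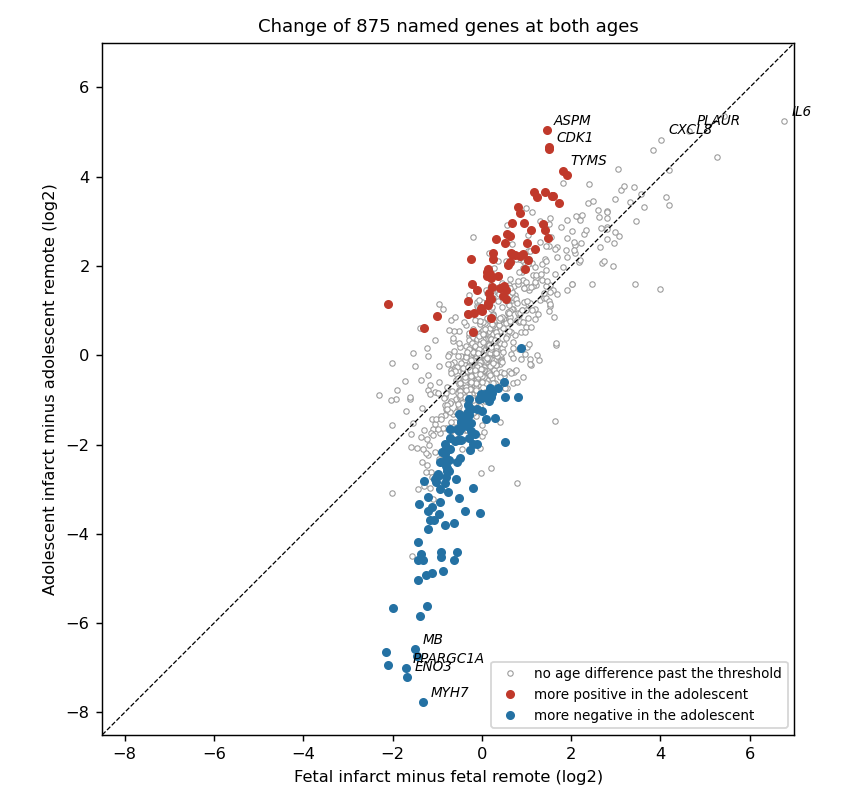
Infarct minus remote difference (log2) of the 875 named genes in the fetus (horizontal) and the adolescent (vertical); the dashed line marks equal change, and filled points differ between the ages past an adjusted p of 0.05. Muscle genes such as MYH7 (-7.77 against -1.31) lie below the line, cell cycle genes such as CDK1 (4.66 against 1.50) above it, and PLAUR, CXCL8 and IL6 near it without a difference past the threshold.

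The same contrast in the fetal heart was set beside the adolescent contrast. Fetal and adolescent arrays held separate positions on every slide, so slide position and age cannot be told apart. The difference of the 2 contrasts passed for 2647 of 12451 probes (21.3%), 1106 (8.88%) more positive and 1541 (12.4%) more negative in the adolescent, and for 180 named genes (20.6%). Of the 1541 probes, 1518 were among those that fell in the adolescent infarct, and of the 1106 probes 1079 were among those that rose. Over all tested probes 29.8% fell and 27.4% rose. The adolescent contrast is itself a part of the difference between the ages, so such overlap is largely built in. All 3 cardiomyocyte genes, 5 of 6 oxidative phosphorylation genes, 4 of 8 fatty acid genes and 8 of 18 glycolysis genes were more negative in the adolescent. MYH7 lay between 1.14 and 2.90 in the fetal infarct and between 3.37 and 3.49 in fetal remote muscle, a change of -1.31 against -7.77 in the adolescent (limma adjusted p of the difference = 0.00024). In the cell cycle list 7 of 13 genes were more positive in the adolescent and none more negative. For CDK1 both infarcts reached the same level (0.47 to 0.51 in the fetus, 0.37 to 0.67 in the adolescent), while remote muscle lay at -1.29 to -0.86 in the fetus and -4.89 to -3.38 in the adolescent. The cytokine list had no difference between the ages past the threshold in 12 genes, with medians of 2.96 in the adolescent and 2.46 in the fetus, and the macrophage list had 1 in 10, TYROBP. IL6 changed by 6.77 in the fetus and 5.24 in the adolescent, a difference of -1.53 (SE 1.38, limma adjusted p = 0.47), and PLAUR by 4.64 and 5.03 (difference 0.39, SE 1.08). Such wide errors do not show that the ages acted alike. After normexp background correction 269 probes differed between the ages.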

How the data were processed

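The deposited scanner files give, per the file headers, the processed intensity of each 60-base probe (Agilent Feature Extraction 10.1.1.1), which was used with control spots and outlier-flagged spots left out. Per the submitters' processing notes the authors used limma, with no version given. The log2 values that the authors deposited for the series served as an alternative. The log2 signal minus the 75th percentile of each array was fitted with limma 3.58.1 in R 4.3.3 over all 23 arrays in 8 groups, so the spread comes from all groups, with no block. Probes well above background on at least 2 arrays of a group were kept (12451 of 15008). p-values are two-sided. The fit was tested on simulated data of 12360 probes made for this comparison, with 100 probes changed 2-fold and 100 changed 4-fold. It recovered 37% of 2-fold and 85% of 4-fold changes, and 10 of 132 calls were unchanged probes. The simulated share of changed probes was far below the 57.3% called in the data, so these rates need not hold for the real comparison. The number of arrays limits the precision. Array names were updated with the RefSeq gene table, or by hand from old names and protein descriptions, and 13276 of 15008 probes stayed unnamed. A gene is represented by its tested probe with the highest mean over all arrays. 40 gene lists with 852 genes were used, of which 285 were measured. The genes given are the 12 largest rises and 12 largest falls without overlap, 5 at each end of the age difference, up to 6 per list by moderated t with other members by count or as examples, and a fixed set. The members and lists were chosen with earlier results of these data known, and other examples from the lists after their values were seen. "At least" folds set the brighter group's mean against the detection limit of the dim arrays. Replicate numbers coincide with slides. Deviations of infarct and remote arrays of the same number correlated by 0.20, 0.18 and 0.03, and those of different numbers by -0.19 to -0.006. The labels name no pairs, so the arrays were not taken as pairs in the main fit, and a fit with the replicate block served as an alternative. The series text and the file headers name different array design numbers and scanner models. Alternatives were the scaling, the background correction, the filter, array weights, brightness, the block, the arrays fitted and leaving out each array. Some members of the lists are counted but not reported here by name.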

Additional observations from a re-analysis of the deposited data

Results flagged for a closer look

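The named genes whose infarct minus remote change differed most between adolescent and fetal hearts were marked by the test of that difference in limma. A more positive change in the adolescent was found for 5 genes: ASPM by 3.60 (SE 0.79), FBP2 by 3.25 (SE 0.80), CDK1 by 3.16 (SE 0.51), CCNA2 by 3.12 (SE 0.56) and LOC100191065 by 2.51 (SE 0.65). For FBP2, the muscle fructose bisphosphatase, the adolescent change alone did not pass (1.15, SE 0.57), its probe was above background on 3 adolescent infarct arrays and on no adolescent remote array, and the fetal infarct arrays were all dim, so the difference rests on signals near the detection limit. ASPM, CDK1 and CCNA2 had similar infarct levels at both ages and lower remote levels in the adolescent.

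A more negative change was found for 5 others: MYH7 by -6.45 (SE 0.92), ENO3 by -5.53 (SE 0.72), PPARGC1A by -5.30 (SE 1.06), PRKAA2 by -5.30 (SE 0.85) and MB by -5.09 (SE 0.84). All 5 are muscle or energy genes. PPARGC1A and PRKAA2 were above background on 1 of 3 adolescent infarct arrays, so the size of their fall is limited by the dim side.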

How the results depend on the processing

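Of 173 named genes called, 92 kept their direction and stayed past the threshold in every alternative that could be computed for them. Array brightness in the fit and normexp background correction changed the counts most. Brightness left 3969 probes past the threshold, 283 named genes and 1104 probes for the age difference, and normexp left 3546, 282 and 269, against 7129, 481 and 2647. Directions turned with brightness for ATF6 (0.26) and CD3G (0.15), and with normexp for CD247 (-0.76), IRF3 (-0.23), MMP9 (-0.96), NFE2L2 (-0.44), NOX4 (-0.64), NRG1 (-0.056), SERPINC1 (-1.12), SLC2A1 (-0.062), TIE1 (-0.24) and TIMP2 (-0.11), none past the threshold; the cause was not tested. Normexp moved the median of all probes to -0.73 and quantile normalization to 0.00. Leaving out each array gave 6460 to 6687 probes for the comparison. Of 39 list medians, 12 changed sign under an alternative, among them neutrophil markers (-0.96 with normexp). The replicate block, whose numbers were not taken as pairs, gave 7449 probes and 516 named genes, and with the 6 arrays alone, chosen after seeing the data, 6531 probes. The deposited values gave 5519 of 8411 probes. Dim probes in remote muscle limit the precision of folds: 309 probes called higher were above background on no remote array.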

Other observations

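Several further genes, chosen one by one after their values were seen and covered by no list, passed the test, and they stand for no group. Of 3 C-type lectin receptors of phagocytes CLEC6A rose by 4.15, CLEC4E by 3.23 and CLEC7A by 3.11, and none of the 3 passed in the brightness-adjusted fit (3.12, 1.64 and 2.56). DBP, an output of the clock, lay at -4.37, -3.99 and -3.88 against -0.46, -0.13 and -0.22, a difference of -3.81 (SE 0.28, limma adjusted p = 1.5e-08). The clock gene CLOCK differed by -1.87, with -0.50 in the brightness-adjusted fit. PER1 was lower too, but was above background on no infarct array and only 1 remote array. Its remote mean lay 2.62-fold above the detection limit of the infarct arrays. That mean includes dim remote arrays, so the fold is not a firm lower bound. The time of day of sampling is not given in the sources used here.

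PSPH, the last enzyme of serine synthesis, rose by 2.97, MTHFD2, an enzyme of mitochondrial one-carbon metabolism, by 2.94 and the mitochondrial serine carrier SFXN1 by 2.51. Epidermal growth factor family ligands AREG and NRG1 rose by 4.18 and 3.50 while the receptor ERBB2 fell by 3.69, with AREG and NRG1 above background on 1 of 3 remote arrays, remote 1. FBXO32, a ubiquitin ligase of muscle wasting, lay at -2.35, -1.36 and -2.36 against 3.08, 2.83 and 2.53, a difference of -4.84 (SE 0.40). BCKDHA, of branched-chain amino acid breakdown, differed by -4.18 and the complex I subunits NDUFA12 and NDUFA2 by -2.99 and -2.10. The lipid droplet proteins split, with PLIN2 up by 2.37 and PLIN5 down by 6.63 on the log2 scale. The lysosomal lipase LIPA rose by 3.25, the adenosine receptor ADORA3 by 3.84, the galectin LGALS1 by 2.86 and the cytoskeletal ACTG1 and CFL1 by 2.46 and 2.81. For PPIB the 4 probes were called in both directions.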
